A study of Mus musculus with 2 samples.

Results

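Long non-coding RNA genes of the mouse, 8 in number, were taken by name: Neat1 and Malat1, whose RNAs stay in the nucleus, and the snoRNA host genes Gas5, Snhg1, Snhg3, Snhg8, Snhg12 and Zfas1. Their rows were found by Ensembl identifier in the deposited gene tables, and their transcripts in the deposited transcript tables. Of these 8 genes, 6 had rows, with 51 transcripts, among 43346 genes and 103639 transcripts in all. Snhg1 and Snhg8 were not analysed here. The study sequenced polyadenylated RNA longer than 200 nt from the gonadal fat pad, a white adipose depot, of 8-week-old adult C57BL/6J mice, with males and females pooled by the labels. There was 1 group of 2 libraries, biological replicates 1 and 2, and no treatment or genotype was compared. Both libraries carry 1 donor identifier, so how many mice stand behind each is not known, and the spread between them may be partly technical. With 2 libraries of 1 group, levels and differences are described and nothing was tested.

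NEAT1 RNA builds paraspeckles, nuclear bodies that form around its long isoform, while a short polyadenylated isoform shares its 5′ end. MALAT1 RNA gathers in nuclear speckles, which store splicing factors. Host genes such as Gas5 carry small nucleolar RNAs in their introns. These guide methylation or pseudouridylation of ribosomal and spliceosomal RNA, and the spliced exons left over code for no known protein and, for hosts such as Gas5, are short-lived because nonsense-mediated decay removes them when they are translated. Many hosts start with a run of pyrimidines, as genes of the translation machinery do.

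The libraries held 47106979 and 54129473 fragments assigned to genes in replicates 1 and 2. They were not copies of each other, with a chi-square statistic per degree of freedom of 136.1 over 19548 genes. All 8 adipocyte markers were above 1 TPM (a level per length of transcript and per library) and summed to 13813 and 12934 TPM. Of that sum the marker Cfd gave 6724 and 3717 TPM, and 5 of the 8 were higher in replicate 2. All 6 markers of the epididymis, the sperm duct beside the male pad, summed to 29842 and 18396 TPM, and 3 red blood cell markers to 5057 and 1992 TPM. The labels give both sexes, yet the 4 Y-linked markers summed to 29.7 and 37.2 TPM while Xist, the RNA that coats the inactive X, had 18 and 4 fragments, given as 0.030 and 0 TPM. No values below depend on the sex label.

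The ends of the transcripts bear on the composition of these genes, since the RNA was selected by its poly(A) tail. The last 60 bases of 5 transcripts are given 5′ to 3′ from GENCODE M21 on mm10, with the polyadenylation signals AATAAA or ATTAAA in capitals.
Neat1-202, short form, chr19:5842307-5842366, minus strand: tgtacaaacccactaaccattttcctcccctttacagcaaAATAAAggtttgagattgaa
Neat1-201, long form, chr19:5824708-5824767, minus strand: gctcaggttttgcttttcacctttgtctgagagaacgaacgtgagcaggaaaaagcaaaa
Malat1-201, full length, chr19:5795690-5795749, minus strand: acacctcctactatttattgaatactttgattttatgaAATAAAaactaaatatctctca
Gas5-224, spliced, chr1:161038478-161038537, plus strand: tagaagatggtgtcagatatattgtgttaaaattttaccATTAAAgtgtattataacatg
Gas5-201, retained intron, chr1:161036570-161036629, plus strand: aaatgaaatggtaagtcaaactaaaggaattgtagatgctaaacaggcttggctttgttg
The short Neat1 form and full-length Malat1 each held AATAAA, starting 20 and 22 bases before the end. The long Neat1 form and Gas5-201 held neither motif in this window, nor did Neat1-203, a shorter Neat1 transcript described with the composition of that gene. Among 141515 annotated transcripts of at least 60 nt, searched on the transcript strand only, 27.2% held AATAAA and 9.1% held ATTAAA in their last 60 bases. The long Neat1 form is known to end without a poly(A) tail, so its level in poly(A)-selected RNA need not be its level in the tissue. A motif at an annotated end does not show how fully poly(A) selection recovered a transcript, and this was not measured for Malat1 either. The levels of Neat1 and Malat1 below, and the ratio between them, are thus those of poly(A)-selected RNA.

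The starts of 4 host genes are shown because a pyrimidine run there is the mark of the translation machinery genes. Each line holds 20 bases before and 20 from the annotated start, from RefSeq (build GRCm38.p6). Capitals mark a run of at least 5 C or T that begins with C and starts within 5 bases of the annotated start on the gene's strand.
Gas5, main start, chr1:161035146-161035185, plus strand: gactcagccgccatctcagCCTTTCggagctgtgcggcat
Snhg12, chr4:132308658-132308697, plus strand: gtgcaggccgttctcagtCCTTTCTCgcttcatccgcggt
Snhg3, chr4:132353667-132353706, minus strand: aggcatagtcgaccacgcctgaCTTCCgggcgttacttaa
Zfas1, chr2:167062914-167062953, plus strand: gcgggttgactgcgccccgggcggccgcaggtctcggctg
Gas5, Snhg12 and Snhg3 had such a run, of 6, 8 and 5 bases, and Zfas1 had none in this window. Of 32851 RefSeq starts, 16.1% had one by the same rule.

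Neat1 and Malat1 were the most abundant of the 6 genes, and all 6 were well above the usual level of a long non-coding RNA in this tissue. Neat1 (chr19:5824708-5845478, minus strand, mm10) was at 586.6 TPM in replicate 1 and 613.5 TPM in replicate 2, a mean of 600.1 ± 19.05 TPM (SD, n = 2). Malat1 (chr19:5795690-5802672, minus strand), which lies 22035 nt from Neat1, was at 317.1 and 334.5 TPM, a mean of 325.8 ± 12.3 TPM (SD, n = 2). For both, replicate 2 was slightly the higher, and the ratio of Neat1 to Malat1 was 1.85 and 1.83.

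The 4 host genes with rows were lower. Gas5 (chr1:161034422-161038539, plus strand), first found as a transcript of growth-arrested cells, was at 131.7 TPM in replicate 1 and 62.5 TPM in replicate 2, a mean of 97.1 ± 48.9 TPM (SD, n = 2). It is the member whose libraries stood far apart. Snhg12 (chr4:132308623-132311024, plus strand) was at 42.5 and 41.1 TPM, a mean of 41.8 ± 1.0 TPM (SD, n = 2). Zfas1 (chr2:167062934-167065862, plus strand), which starts beside the promoter of Znfx1 on the other strand, was at 34.1 and 33.7 TPM, a mean of 33.9 ± 0.31 TPM (SD, n = 2). Snhg3 (chr4:132348014-132353686, minus strand), which carries the H/ACA snoRNAs Snora73a and Snora73b, was at 30.9 and 32.0 TPM, a mean of 31.4 ± 0.78 TPM (SD, n = 2). Snhg12, Zfas1 and Snhg3 each differed by under 4% between the libraries.

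**Figure D1:**
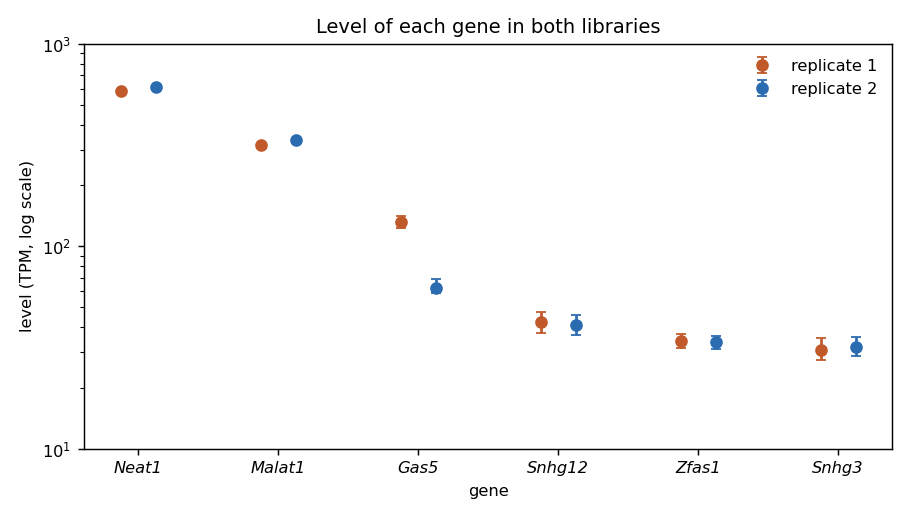
Level of each gene in TPM on a log axis, with replicate 1 on the left and replicate 2 on the right of each pair; bars are the intervals in the authors' deposited tables, whose level is not stated. Neat1 lies near 600.1 TPM and Snhg3 near 31.4 TPM, and Gas5 is the gene with its points apart, at 131.7 and 62.5 TPM.

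In the order Neat1, Malat1, Gas5, Snhg12, Zfas1, Snhg3, each of the 5 neighbouring pairs was apart, the lower library of the higher gene lying above the higher library of the lower gene. The closest pair was Zfas1 and Snhg3, with 33.7 TPM as the lowest Zfas1 value against 32.0 TPM as the highest of Snhg3. In the authors' deposited tables the intervals of that pair overlapped in both libraries, at 31.4 to 36.9 TPM for Zfas1 and 27.5 to 35.2 TPM for Snhg3 in replicate 1. The order of Neat1 and Malat1 rests on how length is counted. Neat1 had 59486 and 71400 fragments and Malat1 had 54395 and 66427. Per kb of the longest transcript of each gene, Neat1 had 2864 and 3437 fragments and Malat1 had 7790 and 9513, the reverse order. TPM divides by an effective length, which averages the isoforms in use, of 2720 and 2506 nt for Neat1 and 4600 and 4275 nt for Malat1.

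The genes were chosen with earlier results of these data known, and the 2 without rows are not counted, so the shares here are background only. All 6 genes passed 1 TPM in both libraries, against 33.0% of all genes and 8.92% of 6853 long non-coding RNA genes. Their median was 87.1 and 51.8 TPM, against 3.21 and 2.94 TPM for the other 605 expressed long non-coding RNA genes. Among the 611 expressed genes of that class, Neat1 ranked 3, Malat1 4, Gas5 12, Snhg12 25, Zfas1 32 and Snhg3 37. The 2 genes above Neat1, named after their values were seen, were Gm42418 at 5085 and 2212 TPM and Gm10076 at 1456 and 1472 TPM. Neat1 and Malat1 held 16.9% and 23.6% of all fragments assigned to long non-coding RNA genes, and the 6 genes 17.4% and 24.1%. By TPM the 6 genes held less, 8.41% and 10.8% of the class. Shares of the class also move with Gm42418, which had 306088 and 165151 fragments. Of the fragments of all genes, Neat1 held 0.126% and 0.132% and Malat1 0.115% and 0.123%.

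**Figure D2:**
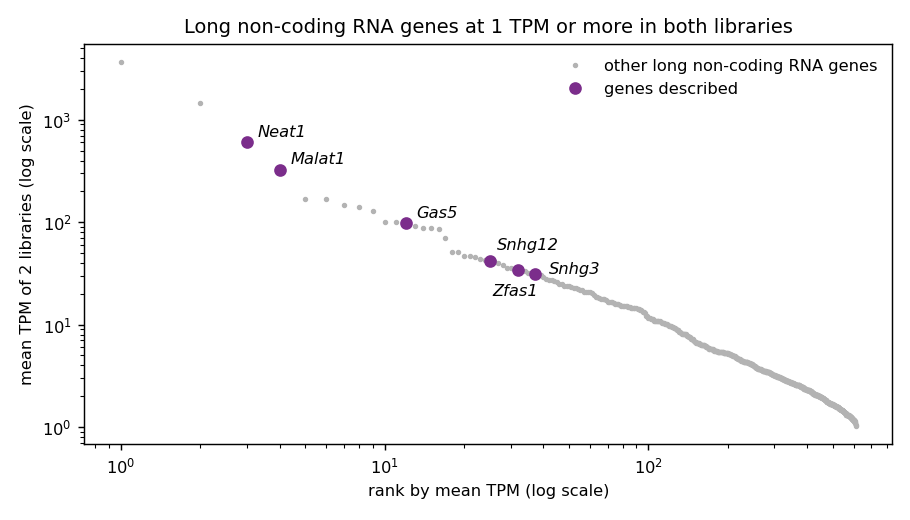
Mean TPM of the 2 libraries against rank for the 611 expressed long non-coding RNA genes, both axes on a log scale, with the 6 genes described in purple. Neat1 and Malat1 stand at ranks 3 and 4, and Snhg12, Zfas1 and Snhg3 between ranks 25 and 37.

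Between the libraries, 5 of the 6 genes were nearly level and Gas5 was about 2-fold higher in replicate 1. Ratios are log2 of (TPM + 1), replicate 1 over replicate 2, so a positive one means higher in replicate 1. They were -0.06 for Neat1, -0.08 for Malat1, 0.05 for Snhg12, 0.02 for Zfas1 and -0.05 for Snhg3. The ratio of Gas5 was 1.06, with a counting error of 0.05 from its 1936 and 1288 fragments. Thus 1 of 6 genes was over 2-fold apart, against 2.70% of the 16920 genes with a mean of 20 fragments or more and 2.52% of the 1071 long non-coding RNA genes among them. By direction, 1.54% of all genes were over 2-fold higher in replicate 1 and 1.15% in replicate 2. Of the expressed genes, 2.08% had a larger absolute ratio than Gas5. The median gene stood at 0.12, so that relative to it the ratios were 0.94 for Gas5 and between -0.20 and -0.07 for the others.

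**Figure D3:**
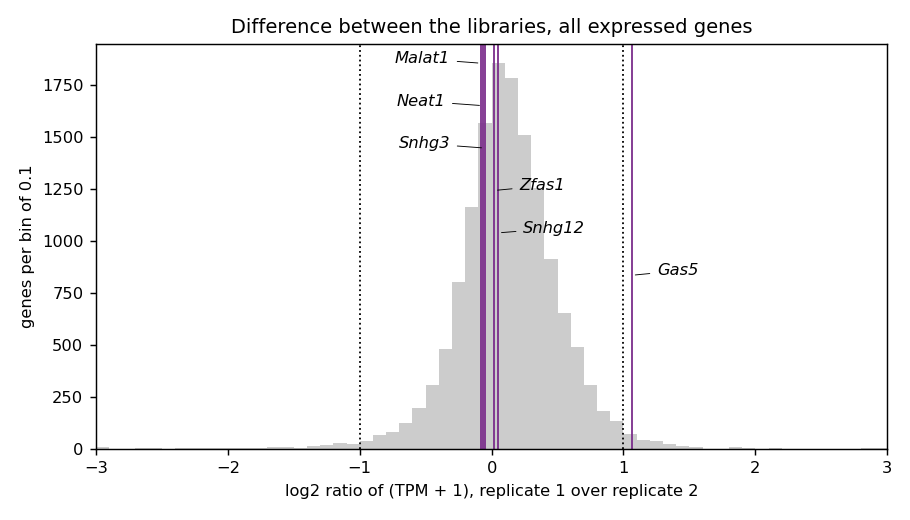
Number of expressed genes per bin of 0.1 in the log2 ratio of (TPM + 1), replicate 1 over replicate 2, with ratios beyond 3 in either direction placed in the end bins; purple lines mark the 6 genes and dotted lines a 2-fold difference. Gas5 lies at 1.06, and the other genes lie between -0.08 and 0.05.

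The size of the Gas5 difference depended on the scale, though replicate 1 was higher on every scale tried. FPKM, which scales by length and library size, gave 101.9 and 52.7, a log2 ratio of 0.94. Counts scaled by TMM or by DESeq2 size factors gave 0.74 and 0.73, or 1.67-fold and 1.66-fold, under the 2-fold limit. Scaling to the ERCC spike-in RNAs gave 0.46, where the median gene stood at -0.29. Relative to the median gene, Gas5 was 0.75 higher by counts. This value is nearly the same on all 3 count scales by construction, since each divides the same counts by 1 constant per library. The count and TPM values differ in part by effective length, which for Gas5 was 394.3 nt in replicate 1 and 443.5 nt in replicate 2. In bulk tissue, a smaller share of cells that express a gene and less RNA per cell cannot be told apart. Summed markers of the epididymis (5 of 6 higher in replicate 1), of red blood cells (3 of 3 higher) and of spermatids (3 of 3 higher, at 437.4 and 280.3 TPM) also stood higher in replicate 1. Adipocyte markers leaned the other way, with 5 of 8 higher in replicate 2 and a median log2 ratio of -0.31. None of these markers was at 0 in either library. Their part in the Gas5 difference was not tested.

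Several transcripts of Gas5, spliced and intron-retaining, stood higher in replicate 1. Of 25 annotated transcripts, 13 were higher in replicate 1, 5 were higher in replicate 2 and 7 were listed at 0 in both. Gas5-224, a spliced form of 502 nt, was at 42.2 and 15.0 TPM, a log2 ratio of 1.43. Gas5-201, a retained-intron form of 530 nt, was at 36.8 and 19.8 TPM, a log2 ratio of 0.86. Both main forms were thus higher in replicate 1, the spliced one by more.

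Gas5-209, a spliced form of 346 nt that ends 2 bases past Gas5-224, was at 18.6 and 12.3 TPM. Gas5-222, a retained-intron form of 1614 nt, was at 6.69 and 3.38 TPM. The longest form, Gas5-218 of 2556 nt, which also retains introns, was at 2.94 and 3.01 TPM from 256.5 and 325.6 fragments. That form did not share the difference, and the other 24 transcripts together were at 128.8 and 59.5 TPM, a 2.16-fold ratio. Grouped by annotation, the 5 lincRNA forms summed to 69.8 and 29.5 TPM and the 20 retained-intron forms to 61.9 and 33.0 TPM. Retained-intron forms held 66.8% and 76.9% of the gene's fragments.

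**Figure D4:**
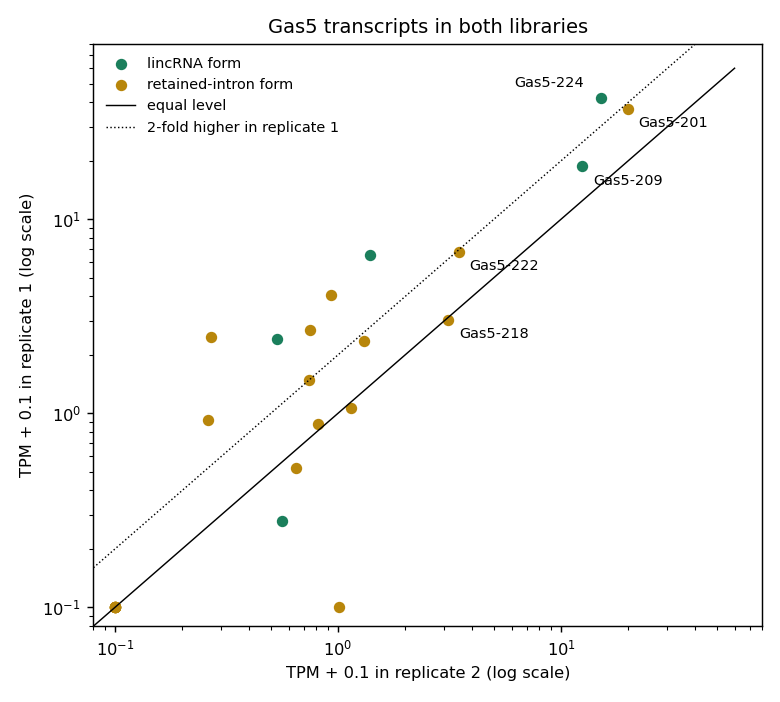
TPM + 0.1 of the 25 Gas5 transcripts, replicate 1 on the vertical and replicate 2 on the horizontal log axis; the 7 transcripts listed at 0 in both lie on 1 point at the lower left. Gas5-224 lies above the dotted 2-fold line, and Gas5-218, at 2.94 and 3.01 TPM, lies on the line of equal level.

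Neat1 was mostly its short form. Neat1-202, of 3004 nt, was at 361.0 and 346.8 TPM and carried 61.5% and 56.5% of the gene's TPM. Neat1-203, of 1030 nt, lies within the same 5′ region and was at 205.1 and 248.6 TPM, or 35.0% and 40.5%. The long form Neat1-201, of 20771 nt, was at 20.5 and 18.1 TPM, or 3.50% and 2.96%. By fragments the long form held more, 15745 and 17305 or 26.5% and 24.2% of the gene, since each long molecule gives many fragments. The short form is contained in the sequence of the long one apart from a spliced stretch of 166 nt, so the division of fragments in the shared region is an estimate.

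In the deposited estimates Malat1 was divided between its full-length transcript and a short one at its 3′ end. The short one lies within the full-length one, with a stretch of 603 nt spliced out. The division of shared fragments between them is thus an estimate. Malat1-201, of 6983 nt, was at 208.6 and 203.2 TPM, or 65.8% and 60.7% of the gene's TPM. Malat1-204, of 656 nt, was at 106.6 and 130.9 TPM, or 33.6% and 39.1%. The gap was wider by fragments, where Malat1-204 held 1747 and 2629, or 3.21% and 3.96%, and Malat1-201 the rest but for 0.046% and 0.011%. Malat1-204 and Neat1-203, the short transcripts, were both higher in replicate 2, with log2 ratios of -0.29 and -0.28, while the full-length Malat1 and the short Neat1 form stood at 0.04 and 0.06.

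**Figure D5:**
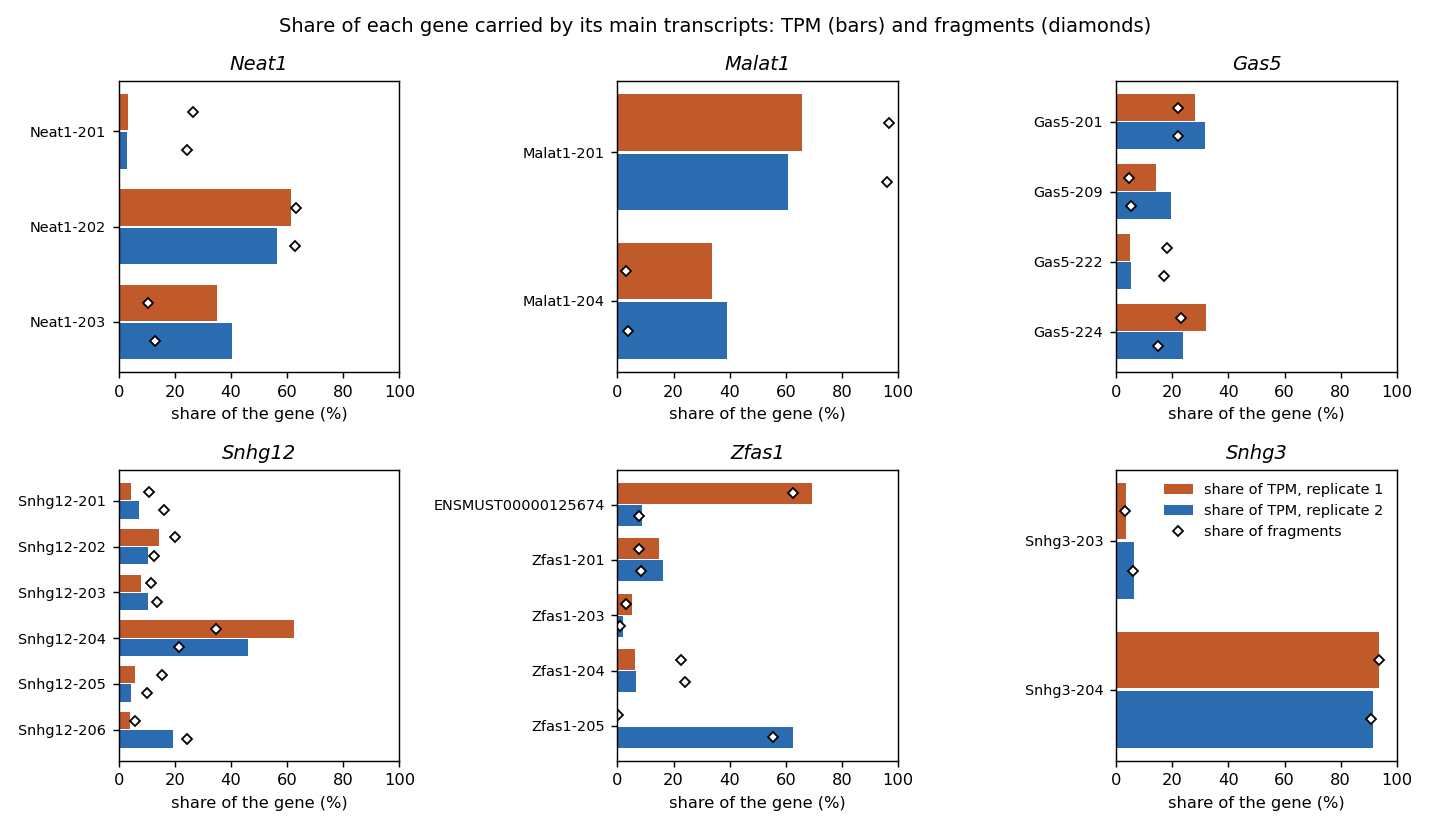
Share of each gene's TPM (bars, replicate 1 above replicate 2) and of its fragments (diamonds) carried by transcripts with 5% or more of the TPM in either library, and by the long form Neat1-201. Neat1-201 has 3.50% and 2.96% of TPM and 26.5% and 24.2% of fragments, and in Zfas1 2 transcripts exchange places between the libraries.

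The level of Zfas1 agreed between libraries while the assignment to its transcripts did not. ENSMUST00000125674, of 737 nt and absent from GENCODE M21, was at 23.7 and 2.90 TPM. Zfas1-205, of 738 nt, was at 0.030 and 21.1 TPM. Together they were at 23.7 and 24.0 TPM. The posterior mean of the authors' deposited tables gave 40.4% and 27.0% of the gene to ENSMUST00000125674 and 28.6% and 43.9% to Zfas1-205, a smaller exchange in the same direction. With lengths 1 nt apart these transcripts are reported as uncertain, and their sum is the value to be used. The remaining Zfas1 forms, all of the retained-intron class, summed to 10.4 and 9.71 TPM.

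By TPM, Snhg12 differed between the libraries in estimated composition more than in level. Snhg12-204, given as 364 nt in the deposited tables and as 1416 nt in GENCODE M21, was at 26.6 and 18.9 TPM, or 62.5% and 46.1% of the gene. Its share of fragments was smaller, 34.7% and 21.4%, and TPM divides by the short length. Snhg12-206, of 606 nt, was at 1.69 and 7.91 TPM from 24.6 and 140.6 fragments, or 3.99% and 19.3% of TPM and 5.85% and 24.3% of fragments. By fragments Snhg12-206 was thus above Snhg12-204 in replicate 2. The one transcript was higher in replicate 1 and the other in replicate 2, with log2 ratios of 0.47 and -1.73 and counting errors of 0.18 and 0.32. Snhg12-202 was at 6.18 and 4.31 TPM and Snhg12-203 at 3.33 and 4.34 TPM. Snhg12 counts scaled by TMM gave a gene log2 ratio of -0.30, against 0.05 by TPM, beside an effective length of 265.7 and 303.0 nt. Snhg3 was nearly a single transcript, with Snhg3-204 at 28.9 and 29.2 TPM, or 93.8% and 91.5% of the gene.

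The snoRNAs inside these genes were not measured by these libraries. In GENCODE M21, 29 snoRNA rows of 60 to 205 nt lie inside the 8 genes on the same strand, with 10 in Gas5, 8 in Snhg1, 5 in Snhg12, 3 in Zfas1, 2 in Snhg3 and 1 in Snhg8. Of these, 27 had rows in the deposited tables, and 25 had an effective length of 0 and a count of 0 in both libraries, for which no level can be given. The exceptions were Snora73a and Snora73b in Snhg3, the U17 snoRNAs, each of 205 nt. Snora73b had 0 fragments in replicate 1 and 1 in replicate 2, and Snora73a had 0 in both. A count of 0 allows up to 3 fragments, by counting error only. The 1 fragment was written as 16.97 TPM because the effective length was 1.27 nt, and it is no evidence of a level.

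Genes next to the 6 were mostly near level too. Znfx1, an RNA helicase-like gene that overlaps Zfas1 by 82 nt on the other strand, was at 49.0 and 44.9 TPM. Rcc1, which encodes the exchange factor of the GTPase Ran, overlaps Snhg3 on the same strand and was at 8.93 and 6.57 TPM, so fragments of shared exons could be divided between them. Zbtb37, which overlaps the upstream end of Gas5 on the other strand, was at 2.00 and 2.33 TPM, a log2 ratio of -0.15 against 1.06 for Gas5. Gm37362, the nearest gene on the same strand, had no fragment in either library. Neither of these neighbours of Gas5 stood higher in replicate 1. Trnau1ap, next to Snhg12, was at 21.2 and 14.5 TPM. Frmd8os, an antisense gene 144 nt from Neat1, was low, at 3.10 and 3.88 TPM. Phactr4, 2236 nt from Snhg3, was at 10.6 and 4.79 TPM, a log2 ratio of 1.00 that just passed 2-fold. Beside the unanalysed Snhg8, Prss12 was at 12.9 and 4.33 TPM, and beside Snhg1, Slc3a2, which encodes the heavy chain of amino acid transporters, was at 231.5 and 176.3 TPM.

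No other non-coding snoRNA host of the list used was as far apart as Gas5. Of 11 genes with rows, 8 passed 1 TPM, and the list had a median of 17.3 and 15.5 TPM. The list also holds Mir17hg, a microRNA host gene, at 0.74 and 0.86 TPM, which is counted in the 11 and in the 10 below. Snhg20 led at 97.4 and 102.0 TPM, then Snhg6 at 24.6 and 30.8 TPM and Snhg17 at 23.6 and 26.5 TPM. Of the 10 with a mean of 20 fragments or more, 0 were over 2-fold apart and 3 were higher in replicate 1. Of all genes 64.8% were higher there, and of long non-coding RNA genes 53.6%. The median log2 ratio of these hosts was -0.11, against 0.12 for the median gene and 0.06 for the median long non-coding RNA gene.

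Protein-coding hosts were far more abundant. All 22 passed 1 TPM, with a median of 318.5 and 350.3 TPM and a median log2 ratio of 0.04. Rps12 was at 3411 and 3557 TPM, Rpl13a at 2854 and 2536 TPM and Rpl10 at 1967 and 2084 TPM, all ribosomal protein genes. Of the 22, 1 was over 2-fold apart, against 2.70% of all genes. It was Ncl, which encodes the nucleolar protein nucleolin, at 10.7 and 4.42 TPM from 1571 and 936 fragments.

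Genes of the proteins that work with these RNAs were nearly all expressed. Of 15 snoRNA-protein particle genes, 14 passed 1 TPM, led by Snu13 at 107.8 and 117.3 TPM, Nop10 at 94.4 and 116.6 TPM and Nhp2 at 45.5 and 51.2 TPM. Their median log2 ratio was 0.03. All 15 nonsense-mediated decay genes passed, with a median log2 ratio of 0.22 and 11 of 15 higher in replicate 1, or 73.3% against 64.8% of all genes. Eif4a3, of the exon junction complex, was at 92.5 and 79.4 TPM, Smg5 at 41.3 and 49.6 TPM and Smg9 at 42.2 and 45.1 TPM.

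Paraspeckle and speckle protein genes stood higher in replicate 1 while Neat1 and Malat1 did not. All 12 paraspeckle genes were higher there, against 64.8% of all genes, with a median log2 ratio of 0.33, and 11 of 12 were above the ratio of the median gene, against 48.7% of all genes. Hnrnpk was at 225.5 and 181.9 TPM and Nono, a core paraspeckle protein, at 118.7 and 97.9 TPM. Of 13 nuclear speckle genes, 12 were higher in replicate 1, or 92.3%, with a median log2 ratio of 0.35. Srsf5 was at 474.5 and 352.0 TPM, Srrm2 at 372.9 and 291.6 TPM and Srsf2 at 273.8 and 213.9 TPM. No gene of either list was over 2-fold apart. Markers of the epididymis, red blood cells and spermatids moved the same way, with median log2 ratios of 0.67, 1.38 and 0.84. Those of adipocyte, endothelial and macrophage markers were -0.31, -0.13 and 0.15. The part of any of these markers in the differences was not tested.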

How the data were processed

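Poly(A) RNA of 1 group was measured in 2 libraries. Expected counts (estimated fragments), TPM, FPKM and, for transcripts, the percent of the gene's TPM were made by the authors per the file headers, on mm10 with annotation M4 per the accompanying notes. Aligner and quantifier: not given in the sources used here. Log2 ratios of (TPM + 1) were computed here, replicate 1 over replicate 2. A gene was expressed at 1 TPM in both libraries, and over 2-fold apart with a mean of 20 expected counts and a ratio past 2. The counting error is the Poisson error of the log2 ratio. Symbols, positions and biotypes are from GENCODE M21, and RefSeq gave the starts. Scaling used edgeR 4.0.16 (TMM) and DESeq2 1.42.0 on rounded expected counts, and no p-value was computed. Tables on mm9 were not used. The 2-fold code was tested on simulated data. The members and lists were chosen with earlier results of these data known. Named were the 8 genes, transcripts with 5% of a gene's TPM, the 3 highest genes of each list and any over 2-fold apart, and neighbours. Some genes this rule names are not reported here.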

Additional observations from a re-analysis of the deposited data

How the results depend on the processing

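The count of genes over 2-fold apart was 1 at a 1.5-fold limit. It was also 1 without a filter on counts and with a mean of at least 100 fragments. Those 2 filters could not change the count, since all 6 genes had more than 100 fragments in each library. The count was 0 with TMM scaling and with DESeq2 size factors. It was also 0 in an alternative chosen after seeing the data, TPM centred on the median gene, where Gas5 stood at 0.94. The median log2 ratio of the 6 genes, -0.02 by TPM, was -0.14 with TMM, -0.15 with DESeq2 and -0.42 with ERCC scaling, where the median gene stood at -0.29. It was -0.13 by FPKM and -0.01 by posterior mean TPM. By fragments per kb of the longest transcript 2 of 5 neighbouring pairs kept the order and were apart, and by FPKM 4. All 6 genes passed 10 TPM, and 0.1 TPM necessarily, having passed 1 TPM. With 1 library at a time the median level ran from 51.8 to 87.1 TPM, and 17 to 19 transcripts reached 5%, against 21. All 6 genes stayed expressed, as the rule of 1 TPM in both libraries requires. The count of context genes expressed was 169, and 144 at 10 TPM. A ratio needs both libraries, so none was computed without one. No paired analysis was possible because there is 1 group. Snhg3 and Snhg12, at 254 to 578 fragments, have the largest counting errors.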

Other observations

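Other long non-coding RNAs of the list leaned to replicate 2. Of 11 with rows, 7 passed 1 TPM, and of 10 with a mean of 20 fragments or more 8 were higher in replicate 2. So were 5893 of 16920 genes and 487 of the 1071 long non-coding RNA genes among them. Meg3, a maternally expressed imprinted RNA, was at 105.7 and 154.1 TPM in replicates 1 and 2, and Rian, of the same imprinted cluster, at 38.5 and 63.1 TPM. Firre, a nuclear RNA of the X chromosome, was at 22.6 and 18.8 TPM. None was over 2-fold apart, and the median log2 ratio of those with a mean of 1 TPM or more was -0.40.

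Ribosomal protein genes, which share the pyrimidine start with several hosts, followed the median gene. Of 88 with rows, 83 passed 1 TPM, with a median of 423.9 and 408.4 TPM and a median log2 ratio of 0.13. Rplp1 led at 4255 and 5473 TPM, and Rps21 stood at 2813 and 3311 TPM. The 6 regulators of such mRNAs had a median log2 ratio of 0.26. Among them Eif4ebp1, a repressor of cap-dependent translation, was at 248.1 and 237.7 TPM, Eif4ebp2 at 83.5 and 62.1 TPM and Larp1, which binds pyrimidine starts, at 46.3 and 33.0 TPM.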
